A study of Rattus norvegicus with 20 samples.

Results

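Livers of rats kept on 20% less food for 1 month were compared with livers of control rats of the same duration, on 4 of the 20 expression arrays of a series on mild food restriction. The 4 arrays were chosen by their titles: both arrays of the 20% pool and both of the control pool at 1 month. All rats were male Wistar rats, an outbred laboratory strain, and went on their diets at 6 weeks of age. The sample labels give 9 weeks for the 1 month arrays and 6 weeks for the 1 week arrays. They do not say whether that is the age at the start of the diet or at sampling. With a start at 6 weeks for every rat, neither reading holds for both labels. Every group, controls included, went without food for 16 h before the liver was taken. Control rats are labelled as having no dietary restriction, although the same free-text description of a reduced diet stands on every array. Each group was 5 rats whose liver RNA was combined into 1 pool, and each pool was run on 2 arrays. For comparison, the 5%, 10% and 30% pools at 1 month and the 20% and control pools at 1 week were read in the same way. Because the 2 arrays of a pool measured the same RNA, the spread between rats cannot be seen, and no test of the 1 month difference was possible. The labels state neither the time of day of sampling nor the hours at which rats ate.

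A fed liver turns glucose into fatty acids, cholesterol and triglyceride under the transcription factors SREBP and ChREBP, and a fasted liver burns fatty acids, makes glucose and breaks down amino acids. The same organ carries a circadian clock, a loop in which BMAL1 and CLOCK switch on period, cryptochrome and REV-ERB genes that in turn repress them. Feeding times are known to shift that clock in the liver, and its output genes include enzymes of bile acid and drug metabolism.

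Values are probe set signals, on a linear scale in arbitrary units, after the arrays were brought to a common distribution (quantile normalization). A log2 difference is the mean log2 signal of the 20% arrays minus that of the control arrays. A probe set is called higher or lower where this difference was at least 1 (2-fold) and both arrays of one pool lay above both of the other. This is a rule of size, not a test. The 9520 brighter probe sets of 15866 were compared, down to a mean signal of 11.7 units, and 7055 genes were named, each by its brightest probe set. Where a pool read below 11.7 units it was raised to that level for a fold, which is then written as at least.

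By this rule 450 probe sets (4.73%) separated the 1 month pools, 255 higher (2.68%) and 195 lower (2.05%) after 20% restriction. They held 305 named genes (4.32%), of which 172 were higher (2.44%) and 133 lower (1.89%). The 2 control pools, 1 month against 1 week, were separated at 335 probe sets (3.52%), which is not far fewer. Those pools differ in duration and labelled age, so this count is not a background between like pools. Within 1 pool, the paired arrays differed by at least 1 on the log2 scale at 630 probe sets in the controls and 376 in the 20% pool, and correlated at 0.951 and 0.965. Arrays of the 2 different pools correlated at 0.936 to 0.938. On signals as deposited the median gene itself stood 0.40 higher in the 20% pool on the log2 scale, and the calls split into 693 higher and 67 lower. Dim probe sets carried many calls: 124 of the 255 higher and 79 of the 195 lower had a pool below 11.7 units, and 113 in all were left when 16 units were added to each signal before log2.

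The one test that covers a 20% effect joined both durations. In a limma fit to all 10 pools, with diet level and duration as terms and 4 residual degrees of freedom, 363 probe sets (3.81%) differed between the 2 pools at 20% and the 2 control pools at an adjusted p of 0.05, 206 up (2.16%) and 157 down (1.65%). Among named genes 154 rose (2.18%) and 117 fell (1.66%). This fit includes the 1 month pools and describes both durations together; below, rose and fell refer to it alone. Its count dropped to 22 without the 1 week 20% pool, 64 without the 1 month control pool, 101 without the 1 week control pool and 169 without the 1 month 20% pool. It was 0 without the variance trend, where 1426 probe sets had an unadjusted p under 0.05.

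**Figure D1:**
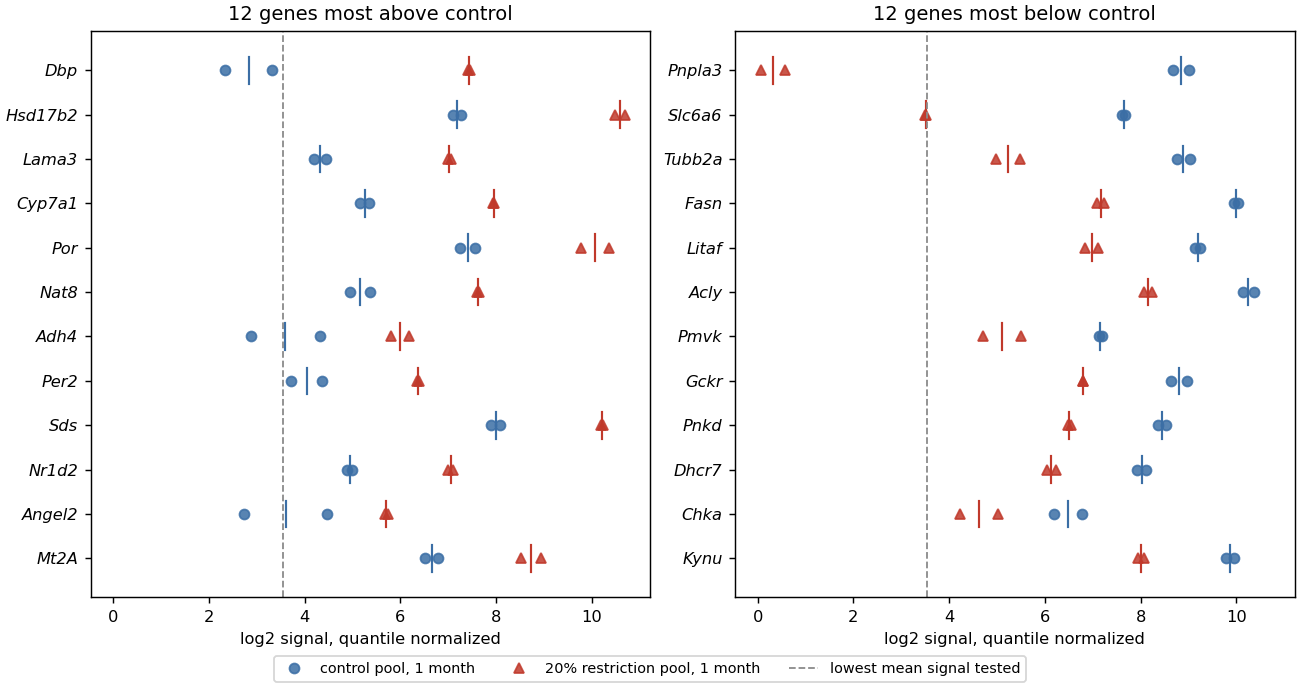
Log2 signal of each array for the 12 named genes most above control (left) and the 12 most below it (right) at 1 month, ranked after pool values below 11.7 units were raised to that level. Circles are the 2 control arrays, triangles the 2 arrays of the 20% pool, short bars the means of the 2 arrays and the dashed line the lowest mean signal tested. Pnpla3 lay at 411 to 513 units in the controls and at 1.05 to 1.49 after restriction. The pools of the genes shown do not overlap because the rule of size requires it.

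The largest difference was a loss of Pnpla3, which encodes a lipid droplet enzyme acting on triglyceride. Its control arrays read 513 and 411 units and its 20% arrays 1.05 and 1.49, at least 39.4-fold lower. At 1 week it was at least 37.7-fold lower, and over both durations Pnpla3 fell (limma adjusted p = 0.000673). The joint fit used signals as measured; its estimate for Pnpla3, -7.18 ± 0.626 (SE), rests on 20% pools of 7.73 and 1.25 units and is no measure of size. Fasn, the fatty acid synthase, read 1052 and 995 units in controls against 137 and 150.3 after restriction. That is a 7.14-fold lower signal, and a second probe set gave a log2 difference of -2.58. Acly, which makes cytosolic acetyl-CoA for fat synthesis, went from 1119.7 and 1320.5 units to 268 and 302, 4.28-fold lower. Fasn fell by 3.46 ± 0.461 in the joint fit (adjusted p = 0.00394), and Acly fell by 2.34 ± 0.229 (adjusted p = 0.0014).

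Fatty acid and triglyceride synthesis as a whole leaned down. Of 29 genes listed, 24 were measured, 22 of them were below control and the median log2 difference was -0.58, against 0.01 over all 7055 genes. Only 5 were called lower (background 1.89%) and 0 higher: Pnpla3, Fasn, Acly, Srebf1 and Pgd. With median centring Srebf1 (-0.97) and Pgd (-0.95) missed the rule, as they did on signals as deposited (-0.65 and -0.64). Srebf1, the gene of SREBP-1, read 670.2 and 644 units in controls and 319.6 and 307 after restriction, 2.1-fold lower; its second probe set, at -0.78, did not reach the rule. Pgd, an NADPH-producing enzyme of the pentose phosphate pathway, was 2.09-fold lower. Another 6 members fell over both durations without being called at 1 month: Acss2, Acaca, Elovl5, Elovl6, Pklr and Slc25a1, with 1 month differences from -0.95 to -0.64. Pklr, the liver pyruvate kinase, read 763 and 899 units against 515 and 471, so its arrays did not overlap but the log2 difference was -0.75. Scd, the stearoyl-CoA desaturase, stood at -0.51, Thrsp at -0.21 and Mlxipl, the gene of ChREBP, at -0.14. At 1 week 14 of the same 24 were called lower and the median was -1.11 (background 2.18% of genes lower at that duration).

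Cholesterol synthesis was lower at many of its steps. Of 19 genes measured from 26 listed, 9 were called lower (background 1.89%), 0 higher, and the median log2 difference was -0.74. The called genes spanned the pathway: Acat2, Pmvk, Mvd and Fdps early on, Lss and Cyp51 at the sterol ring, and Dhcr7 in the last step. Pmvk, the phosphomevalonate kinase, read 146 and 139 units in controls and 45.2 and 26.2 after restriction, 4.14-fold lower. Dhcr7 was 3.69-fold lower, at 277 and 243 units against 74.8 and 66.2. Fdps, the farnesyl diphosphate synthase, was 2.72-fold lower, at 894 and 794 units against 297 and 322. Insig1, which holds SREBP in the endoplasmic reticulum and is itself a SREBP target, was among the brightest, at 1632 and 1588 units against 458 and 470.0. Its paralogue Insig2 stood at -1.11. Of the 19, 8 fell over both durations (background 1.66% of genes), among them Fdft1 and Nsdhl, which were at -0.74 and -0.65 at 1 month. Mvk, Tm7sf2, Hsd17b7, Ebp and Sc5d lay between -0.07 and 0.04. Relative to all genes, the median was -0.57 with 16 units added, and that of the fatty acid list -0.49.

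The stretches just upstream of the start are shown for a pair of these genes because SREBP commonly acts beside factor NF-Y, whose core motif is CCAAT. They are the 250 bases before the start of the RefSeq gene on the GRCr8 assembly, read along the gene, with CCAAT (or ATTGG, its reverse complement) in capitals. Pnpla3 lies at chr7:117173278-117173527 on the plus strand and Fdps at chr2:176804817-176805066 on the minus strand.
Pnpla3: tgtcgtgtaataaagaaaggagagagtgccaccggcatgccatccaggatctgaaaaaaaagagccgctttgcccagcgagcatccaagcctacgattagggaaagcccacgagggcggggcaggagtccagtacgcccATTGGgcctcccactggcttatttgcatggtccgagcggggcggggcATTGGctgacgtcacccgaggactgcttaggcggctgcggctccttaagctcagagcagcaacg
Fdps: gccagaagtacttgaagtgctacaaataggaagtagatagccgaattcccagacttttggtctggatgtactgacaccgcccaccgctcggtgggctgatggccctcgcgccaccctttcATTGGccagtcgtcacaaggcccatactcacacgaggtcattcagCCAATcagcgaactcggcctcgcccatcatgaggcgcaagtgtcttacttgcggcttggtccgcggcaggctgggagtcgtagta
Each holds 2 matches counting both strands, at bases -111 to -107 and -64 to -60 for Pnpla3 and -130 to -126 and -85 to -81 for Fdps. Of the 14 called genes of both lists, 12 had an upstream sequence, matched by gene identifier, and 9 of these (75.0%) held CCAAT, against 34.3% of all 27457 promoters. The motif was as common upstream of the higher clock genes, in 5 of 6 (83.3%). A match is a description of letters, and binding was not measured.

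Genes that burn fatty acids leaned the other way, in part. Of 42 listed, 37 were measured, 8 were called higher (background 2.44%) and 0 lower, with a median of 0.16. Cpt1a, which admits long-chain fatty acids into mitochondria, read 519 and 503 units in controls and 1279 and 1292 after restriction, 2.51-fold higher. It rose over both durations by 1.28 ± 0.111 (adjusted p = 0.000673), and its second probe set stood at 1.82. Eci1 and Ech1, isomerases for unsaturated fatty acids, were 2.72-fold and 2.96-fold higher. Cpt2, Ehhadh of the peroxisome and Hacl1, which shortens branched and hydroxylated fatty acids, were also called. All 6 of these genes rose in the joint fit. Crat and Vnn1 were called at 1 month but did not pass that fit (adjusted p = 0.248 and 0.104). The core mitochondrial steps stayed close to control, with Acadm at -0.13, Acadl at 0.31, Hadha at 0.12 and Acaa2 at 0.32. Several genes known to rise in a fasted liver were lower in value, Pdk4 at -0.97, Plin2 at -0.84 and Angptl4 at -0.30, and Fgf21 was at 0.07; none met the rule. Ppara, the gene of the receptor that switches on fatty acid burning, stood at 1.40, but its arrays overlapped.

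Glucose metabolism showed few called genes. Of 16 genes of glycolysis and glycogen measured, 1 was called higher (background 2.44%) and 1 lower (background 1.89%). Gckr, a regulatory protein of liver glucose metabolism, read 399 and 504 units in controls and 111 and 110.3 after restriction, 4.06-fold lower. Gys2, the liver glycogen synthase, was 2.25-fold higher, at 83.1 and 63 units against 156 and 169. Both passed the joint fit (adjusted p = 0.0162 and 0.0329). In that fit 3 genes of the list rose (background 2.18%) and 2 fell (background 1.66%). The other 14 measured genes of glycolysis and glycogen lay between -0.70 for Pygl and 0.60 for Ugp2. Among 11 gluconeogenic genes 0 were called in either direction (background 4.32%), and 1 rose in the joint fit (background 2.18%). Pck1, the usual marker of that pathway, read 2241 and 2140.2 units in controls against 2478 and 2599. All rats in both groups had been fasted.

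**Figure D2:**
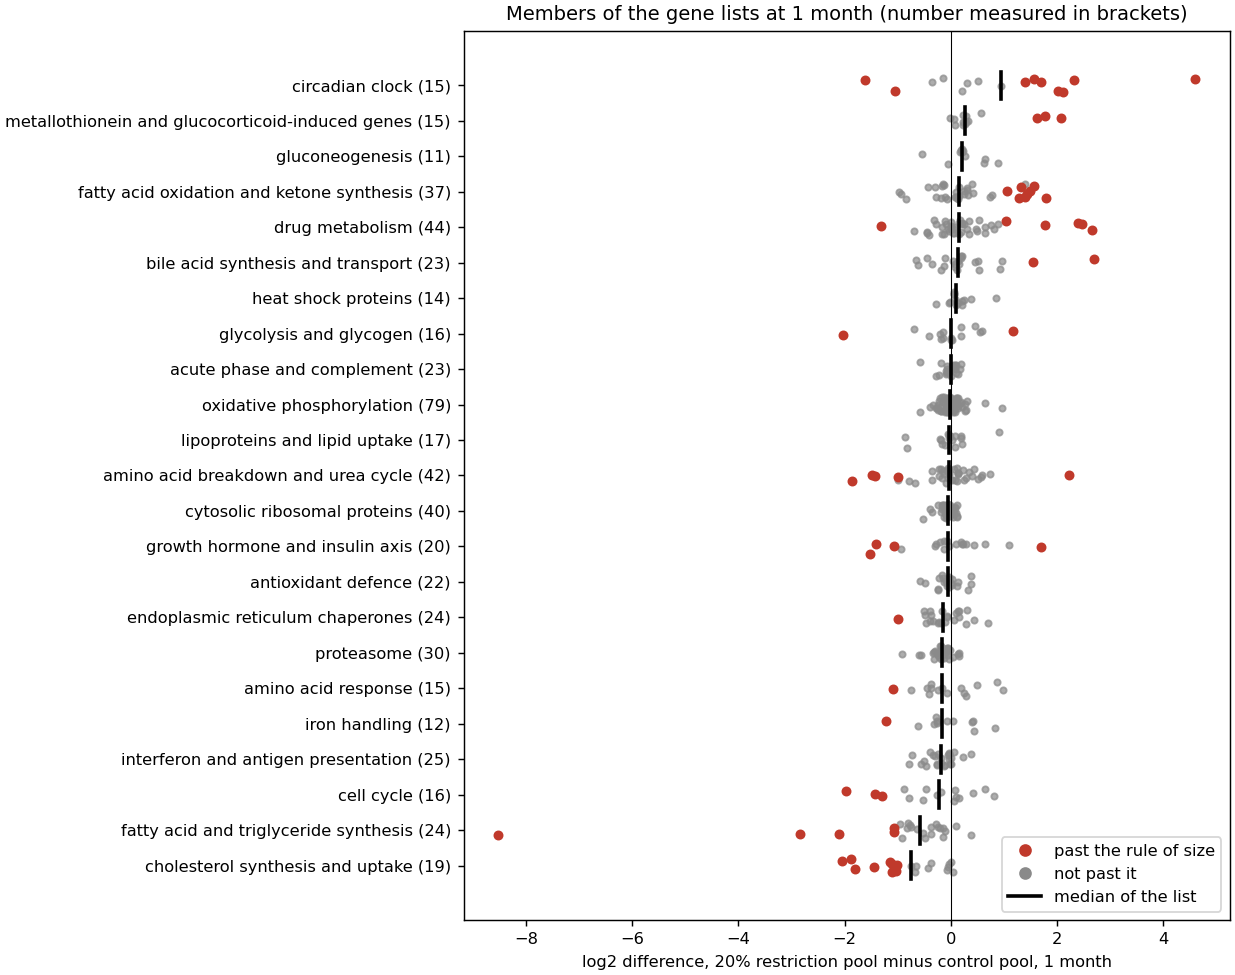
Log2 difference of each measured member of 23 gene lists, 20% pool minus control pool at 1 month. Red points passed the rule of size, grey points did not, black bars are list medians and the number measured is in brackets. Cholesterol synthesis (median -0.74) and fatty acid synthesis (-0.58) lie lowest and the circadian clock (0.94) highest.

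Clock genes made up the other strong pattern. Of 22 listed, 15 were measured, 7 were called higher (background 2.44%) and 2 lower (background 1.89%), and the median log2 difference was 0.94. Relative to all genes that median was 0.79 on signals as deposited and 0.41 with 16 units added. Dbp, a transcription factor driven directly by CLOCK and BMAL1, read 9.97 and 5.07 units in controls and 169.9 and 174 after restriction, at least 14.8-fold higher. Per2, a repressor of the loop, was 5-fold higher, at 13.2 and 20.7 units against 81.2 and 84.3. Nr1d2, which encodes REV-ERB beta, was 4.33-fold higher at 31.6 and 29.8 units against 128 and 138. Its other probe sets stood at 3.13 and 2.26, but their control pools lay below 11.7 units. Those values are on signals as measured and are no measure of size. Usp2, a rhythmic deubiquitinase, was 4.07-fold higher, although a second probe set at 0.99 missed the rule. Per1 (1.57), Cry2 (1.69) and Hlf (1.40) completed the higher group. In the opposite direction were the activators: Bmal1 read 40.7 and 43.7 units in controls and 12.8 and 14.6 after restriction, 3.08-fold lower, and Clock stood at -1.05.

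In the joint fit 6 of the 15 measured clock genes rose (background 2.18%) and 1, Clock, fell (background 1.66%). Dbp rose (adjusted p = 0.00287, with both control pools below 11.7 units), and Per2 rose by 2.98 ± 0.335 (adjusted p = 0.00254). The 1 week control pool of Per2 also lay below 11.7 units, at 5.78. Raised to that level, it took the 1 week difference of Per2 from 3.64 to 2.63. Bmal1 did not pass (adjusted p = 0.158). Nr1d1 (0.32), Nfil3 (0.20) and Bhlhe40 (0.52) did not reach the rule, and neither did the kinase genes Csnk1d and Csnk1e. Since each pool was sampled at a single, unstated time, a shift in the timing of the rhythm and a change in its level cannot be told apart.

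Bile acid and steroid enzymes were among the most raised single genes. Cyp7a1, the enzyme that sets the pace of bile acid production, read 40.9 and 35.6 units in controls and 245 and 249 after restriction. It was 6.47-fold higher and rose by 2.48 ± 0.407 over both durations (adjusted p = 0.0102). Abcg5, one part of the transporter that secretes cholesterol into bile, was 2.92-fold higher, though its control arrays were far apart at 29.9 and 10.5 units. Its partner Abcg8 stood at 0.94. Of 23 genes measured in this list 2 were called higher (background 2.44%) and 0 lower (background 1.89%). In the joint fit 5 of them rose (background 2.18%), and at 1 week 5 were called higher (background 2.58%). Hsd17b2, which inactivates oestradiol and testosterone, read 154 and 137 units in controls and 1644 and 1435 after restriction, 10.6-fold higher.

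Drug metabolism held 5 higher genes (background 2.44%) and 1 lower gene (background 1.89%) among 44 measured. Por, the reductase that passes electrons to all microsomal cytochromes P450, read 188 and 152 units in controls and 1315 and 873 after restriction. Its 6.33-fold difference was matched by a second probe set, at 2.64 on the log2 scale. Of the cytochromes P450 that Por serves, Cyp2c11 (-0.10), Cyp3a2 (0.15), Cyp1a2 (0.21) and Cyp2e1 (0.50) were not called. Cyp7a1 (2.69) was called higher and Cyp51 (-1.15) lower. Nat8, an acetyltransferase, was 5.53-fold higher at 30.8 and 41.2 units against 199 and 194. Adh4, an alcohol dehydrogenase, was 5.25-fold higher, Sult2a6, a sulphotransferase, 3.42-fold higher, and Ugt2b1 stood at 1.05. The Adh4 control arrays were far apart, at 20.1 and 7.32 units, and its log2 difference of 2.39 became 1.46 with 16 units added. Cyp2c12, known as the female-predominant form in rats, was 2.47-fold lower in these males, at 76 and 101 units against 38.8 and 32.5. Its control pools differed by -1.97 between 1 month and 1 week. In the joint fit 10 genes of the list rose (background 2.18%) and 1, Cyp2a2, fell (background 1.66%).

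Amino acid breakdown held a few single genes with large differences. The median of its 42 measured genes was -0.03, with 1 called higher (background 2.44%, a share no larger than this) and 4 lower (background 1.89%). Sds, the serine dehydratase that feeds serine carbon into glucose production, read 272 and 237 units in controls and 1174 and 1196 after restriction, 4.66-fold higher. Kynu, the kynureninase of tryptophan breakdown, was 3.62-fold lower at 880.1 and 987 units against 270.1 and 246. Gldc, of the glycine cleavage system, was 2.8-fold lower and Cth, which makes cysteine from cystathionine, 2.69-fold lower. Sds rose and Kynu, Gldc and Cth fell over both durations. Acmsd, a further enzyme of tryptophan breakdown, was at the margin of the rule (2-fold lower), and Bhmt just outside it (-0.99). The urea cycle genes Cps1, Otc and Ass1 lay between -0.17 and 0.14, and Asl was at 0.75.

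Of the 12 lowest genes, several belonged to no list described above. Slc6a6, the taurine transporter, read 196 and 205 units in controls and 11.4 and 11.5 after restriction, at least 17.2-fold lower. Tubb2a, a beta tubulin, was 12.7-fold lower at 435 and 519 units against 44.5 and 31.4. Litaf, a protein of late endosomes, was 4.63-fold lower, and Chka, the choline kinase that starts phosphatidylcholine synthesis, 3.63-fold lower. All 4 fell over both durations. For Slc6a6 the adjusted p was 0.0024. Pnkd was 3.83-fold lower by its brightest probe set, but a second one stood at -0.63.

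The growth hormone and insulin axis held 1 higher gene (background 2.44%) and 3 lower genes (background 1.89%) among 20 measured. Irs2, an insulin receptor substrate, was the higher one (1.70), with control arrays at 23 and 5.46 units. Irs3 (-1.52), Stat5b (-1.41) and Egfr (-1.07) were called lower, but the second Egfr probe set was at -0.30. Irs2 rose and Stat5b and Egfr fell in the joint fit, and Irs3 did not pass (adjusted p = 0.0805). Igf1, the main growth signal the liver secretes, read 2086 and 2099 units in controls and 1746 and 1908 after restriction, a log2 difference of -0.20. Igfbp1, a binding protein that insulin represses, read 248 and 168 units against 194 and 203, so its pools overlapped.

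Metallothioneins were higher. These small proteins bind zinc and copper, and their genes are induced by metals and by glucocorticoids. Mt2A read 109.9 and 92.1 units in controls and 489 and 369 after restriction, 4.22-fold higher, and rose over both durations by 3.22 ± 0.446 (adjusted p = 0.00478). Mt1 was dimmer, at 5.42 and 5.65 units against 16.7 and 21.8, at least 1.63-fold higher, and did not pass the joint fit (adjusted p = 0.295). Gadd45a, a growth arrest gene, was 3.1-fold higher, and it too did not pass (adjusted p = 0.0828). The other 12 measured genes of the list, with glucocorticoid targets such as Fkbp5 (0.28), Tsc22d3 (0.24) and Sgk1 (0.05), lay between -0.02 and 0.56.

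The upstream 250 bases of both metallothionein genes are shown for the metal response element, the site of the zinc sensor MTF-1. Capitals mark TGCACNC or TGCGCNC, the core of that element, on either strand; sequences are from RefSeq on GRCr8. Mt1 lies at chr19:10832976-10833225 and Mt2A at chr19:10838709-10838958, both on the minus strand.
Mt1: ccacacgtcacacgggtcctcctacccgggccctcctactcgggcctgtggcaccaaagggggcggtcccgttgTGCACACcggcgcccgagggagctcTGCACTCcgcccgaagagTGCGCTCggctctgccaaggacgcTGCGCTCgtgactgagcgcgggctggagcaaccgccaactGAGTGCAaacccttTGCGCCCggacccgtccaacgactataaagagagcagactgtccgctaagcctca
Mt2A: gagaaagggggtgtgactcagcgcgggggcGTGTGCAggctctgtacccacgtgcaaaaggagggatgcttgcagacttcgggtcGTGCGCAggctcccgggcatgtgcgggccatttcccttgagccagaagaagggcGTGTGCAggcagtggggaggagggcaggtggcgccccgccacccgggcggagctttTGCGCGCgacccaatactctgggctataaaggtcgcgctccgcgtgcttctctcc
Mt1 holds 6 matches and Mt2A 4, and 21.2% of all 27457 promoters hold at least 1. Of the called clock genes that were higher, 6 of 7 had an upstream sequence and 0 of these held CACGTG, the motif bound by CLOCK and BMAL1, against 5.79% of all promoters. The absence of these letters in 250 bases says nothing of sites elsewhere.

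Cell cycle genes were lower where they were called. Of 16 measured from 32 listed, Ccnb1, Ccnb2 and Cdkn1a were lower (background 1.89%) and 0 higher, with a median of -0.23. Ccnb1 and Ccnb2, the mitotic cyclins, were dim, at 25.8 and 24.7 and at 30.8 and 21.5 units in controls, and their 20% pools lay below 11.7 units. They were at least 2.16-fold and at least 2.21-fold lower. Cdkn1a, which encodes the cell cycle inhibitor p21, was 2.7-fold lower at 132 and 169 units against 37.8 and 80.9, and its second probe set stood at -1.95. Cdkn1a fell in the joint fit (adjusted p = 0.0366) and the cyclins did not pass it.

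With 4.32% of all genes called, a short list holds few or no calls by the rule, and these lists held 0 in either direction: heat shock proteins (14 measured), interferon and antigen presentation (25), acute phase and complement (23), lipoproteins and lipid uptake (17), antioxidant defence (22), proteasome (30), cytosolic ribosomal proteins (40) and oxidative phosphorylation (79). Small shared leanings were visible in the values, with 26 of 30 proteasome genes below control (median -0.16) and 20 of 25 interferon genes below (median -0.18). Of all 7055 genes, 3468 were below control. At 1 week the proteasome median was -0.19, but that of the interferon list was 0.10. A single gene was called lower in each of 3 more lists, against a background of 1.89%. These were Hyou1 (2-fold) among endoplasmic reticulum chaperones (24 measured), Psat1 in the amino acid response (15) and Steap3 (-1.23) in iron handling (12). Psat1 stood at -1.09, but its 20% pool read 6.03 units, so it was at least 1.10-fold lower. A second Hyou1 probe set was at -0.14. Hamp, the iron hormone hepcidin, read 2306 and 2039.5 units in controls and 1838 and 1754 after restriction.

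The tissue label was borne out by the hepatocyte markers, of which 11 of 12 were measured. Their summed signal was 47821 to 47913 units on the control arrays and 47509 to 47538 on the 20% arrays; Alb, albumin, sat at the top of the scale on every array and can show no difference. None of the measured marker genes of bile duct, endothelial, macrophage, stellate, blood, acinar or fat cells was called, against 4.32% of all genes. Few were measured for some types: 1 of 10 acinar, 1 of 5 fat cell, 1 of 10 T and NK cell and 2 of 6 red cell markers. An absence of calls in lists this short says little about cell types. No B cell or neutrophil marker was among the named genes compared. Endothelial markers stood apart in value: all 5 measured of 10 listed were above control, with a median of 0.67 and a summed signal of 326 to 341 units against 220.5 to 226.5. Bile duct markers, 2 measured of 8, summed to 41.4 to 52.5 units against 65.3 to 67.7. In bulk liver a change in the number of cells of a type and a change of RNA per cell cannot be told apart, and the part of these markers in the results was not tested. RNA quality, as the 3' to 5' signal ratio of the Gapdh control probes, lay between 1.46 and 1.58 on all 4 arrays. The same ratio of the actin control probes was 2.72 and 2.73 on the control arrays and 2.98 and 2.82 on the 20% arrays.

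The same restriction for 1 week, in pools that share no sample with those of 1 month, gave 469 called probe sets (4.93%), 246 higher (2.58%) and 223 lower (2.34%). Of these probe sets, 83 were also higher at 1 month, 32.5% of the 1 month list and 33.7% of the 1 week list. Lower at both durations were 75 probe sets, 38.5% and 33.6% of the lists. In opposite directions were 8 probe sets, 4 of each kind. Among named genes 336 were called at 1 week (4.76%), of which 62 were higher and 56 lower at both durations. Of the 255 probe sets higher at 1 month 197 had a positive difference at 1 week, and of the 195 lower ones 146 had a negative one. Across the 9520 probe sets the differences of the 2 durations correlated at 0.46, as a description of points that share probe design, strain and fasting.

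**Figure D3:**
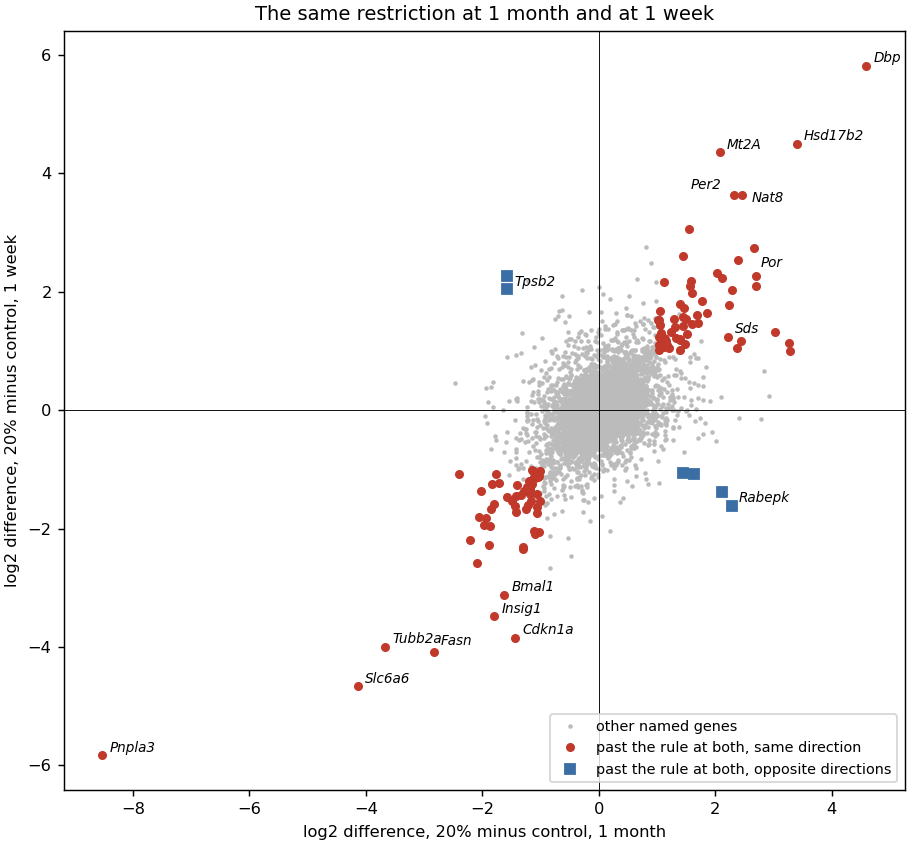
Log2 difference of each of 7055 named genes between the 20% and control pools at 1 month (horizontal) and at 1 week (vertical). Red circles, 62 higher and 56 lower genes, passed the rule of size at both durations in the same direction, blue squares passed it in opposite directions and grey points are all others. Pnpla3, Slc6a6, Tubb2a and Fasn lie far down on both axes, and Dbp and Hsd17b2 far up.

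Sizes differed between durations for several members. Mt2A stood at 4.36 at 1 week and 2.08 at 1 month, Cdkn1a at -3.85 and -1.43, Insig1 at -3.49 and -1.80, and Fasn at -4.09 and -2.84. The Cdkn1a pool at 1 week read 9.62 units, and raised to 11.7 it gave -3.57. For Bmal1 the 1 week 20% pool read 5.42 units, so that difference was at least 4.05-fold, against 3.08-fold at 1 month. Sds was larger at 1 month (2.22 against 1.24), as was Gckr (-2.02 against -1.36). These differences were not tested, and duration and age cannot be told apart. For a further group called at 1 month, the control pools of the 2 durations lay apart. Crat read 18.3 units in the 1 month control pool and 43.5 in the 1 week one, but 48.5 and 44.4 in the 20% pools. Angel2 (12.2 and 30.9 units in the control pools, 52.4 and 35.9 in the 20% pools), Vnn1 and Mt1 likewise had the lower control pool at 1 month. The part of the control pools in these calls was not tested. Control pools lay at least 1 apart for 100 of the 255 higher probe sets and 32 of the 195 lower. With both 20% arrays required to lie outside all 4 control arrays, and 1 or more from the mean of the control pools, 115 of the higher and 120 of the lower remained.

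At the other restriction levels the same 1 month control pool was used, so the values are given side by side only. For Fasn the log2 differences from control at 5, 10, 20 and 30% were -1.97, -3.32, -2.84 and -3.79. Slc6a6 was already at -3.91 at 5% and stayed between -4.13 and -3.81 at the higher levels, and Cyp7a1 ran 2.69, 2.98, 2.69 and 2.33. For these genes the 20% pool sat within the span of the other levels or close to it. Clock genes differed among themselves. Dbp ran 5.29, 5.08, 4.60 and 2.24, with its control pool below 11.7 units, while Per2 ran 2.09, 2.13, 2.32 and 2.20 and Usp2 1.89, 2.28, 2.02 and 1.88. Bmal1 was at -1.62 at 20% and -0.52 at 30%, and its 5 and 10% pools lay below the level tested, so their values have no order. Insig1 (-3.38, -2.40, -1.80, -1.91), Cdkn1a (-2.60, -1.64, -1.43, -0.88) and Hsd17b2 (3.97, 3.84, 3.40, 2.37) were farthest from control at 5%. Igfbp1 went from -1.61 at 5% through -0.54 and -0.04 to 0.75 at 30%. Each level was a single pool, and no order among levels was tested.

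**Figure D4:**
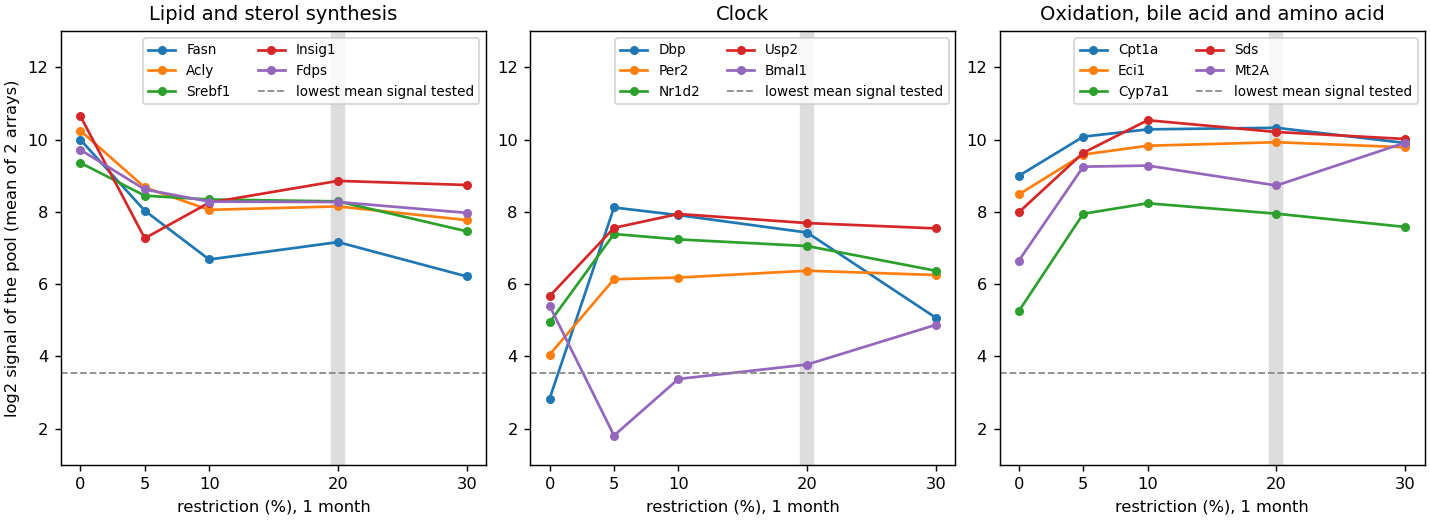
Log2 signal of the pool (mean of 2 arrays) at 0, 5, 10, 20 and 30% restriction for 1 month, for genes of lipid and sterol synthesis, the clock, and oxidation, bile acid and amino acid metabolism with Mt2A. The grey band marks 20% and the dashed line the lowest mean signal tested. Fasn is at 1023 units in the control pool and 143 at 20%, and Dbp at 7.11 and 172; Dbp and Bmal1 at 30% are nearer control than at 20%.

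Set against its neighbours in dose, without the control pool, the 20% pool stood out little. Only 57 probe sets (0.599%) lay at least 1 from the mean of the 10 and 30% pools with both arrays outside all 4 of theirs, 20 above (0.21%) and 37 below (0.389%). Just 3 of them were in the upper 40% of probe sets by signal, and 1 was left after adding 16 units. With pools below 11.7 units raised to it, the named genes above their neighbours were at least 2.37-fold (SIRT2), 2.29-fold (Jph2), 2.20-fold (Tmem151a), 2.02-fold (Neo1) and 1.30-fold (Flnc) higher. Those below were at least 2.07-fold (Hand2), 1.83-fold (Tbx3), 1.74-fold (Efnb1) and 1.21-fold (Coa7) lower, and Slc35a2 lay between the last 2. Slc35a2, a nucleotide sugar transporter, read 2.86 units in the 20% pool against 22.6 and 13.5 in its neighbours, so its low value is below the level tested. Apart from Pnpla3 (-1.69, with all 3 pools below 11.7 units), none of the 24 genes in the plot of the largest differences lay 1 or more from the mean of its neighbours.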

How the data were processed

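The deposited values are intensity signals on a linear scale, 1 per probe set and array, which the submitters' processing notes credit to MAS5; no version or target of scaling is stated there. Rat liver RNA was hybridised as biotinylated cRNA made from 10 ug of pooled RNA, per the labels' protocols. Deposited medians were 15.3 and 22.6 on the control arrays and 20.5 and 26.2 on the 20% arrays at 1 month. In this re-analysis 57 control probe sets were left out, 32 zeros were raised to the lowest value above 0 on the same array, and signals were quantile normalized over 20 arrays and taken to log2. The upper 60% by mean log2 signal, 9520 of 15866 probe sets, were kept. Quantile normalization gave the top probe sets 1 shared value on every array. Detection calls were not used here.

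Names came from the platform annotation: 8120 probe sets had 1 gene, 245 several and 1155 none listed. Differences between pools of 2 arrays had no test. The joint fit used limma 3.58.1 in R 4.3.3 (lmFit, eBayes with trend) on the means of 10 pools, two-sided, with Benjamini-Hochberg adjustment over 9520 probe sets. Each diet level at each duration was 1 pool, so p-values measure departures of pools from the fitted model, not the spread between rats, and the number of arrays limits the precision. The scripts were tested on simulated data.

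Genes were named by rule: the 12 largest differences in each direction, up to 5 called members of each list, a set of metabolic, hormonal and clock genes, and up to 5 in each direction from the comparisons with 1 week and with neighbouring levels. Other genes are list members, given to show the rest of a list. The comparison, the 34 lists and this rule were chosen with earlier results of these data known. Alternatives covered scaling, an added constant, the signal filter, the size threshold, the control pool, single arrays and array pairing. Arrays of a pool differed at all but 83 and 91 probe sets, so neither is a copy.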

Additional observations from a re-analysis of the deposited data

Results flagged for a closer look

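Of the named genes past the rule of size at both durations, 6 went in opposite directions, and the 5 largest are given. Rabepk was higher at 1 month (2.28 on the log2 scale) and lower at 1 week (-1.62). Cdk5rap3 stood at 2.12 at 1 month and -1.39 at 1 week, and Adra2b at 1.63 and -1.08. Zfand2b was lower at 1 month (-1.58) and higher at 1 week (2.26), and Tpsb2, a mast cell tryptase, likewise at -1.58 and 2.04. The difference between durations was not tested for any of them. All 5 were dim, with at least 1 pool of the 1 month comparison below 11.7 units. With such pools raised to that level at both durations, the 1 month and 1 week values became 1.74 and -1.62 for Rabepk, 1.33 and -0.96 for Cdk5rap3, 0.71 and -0.59 for Adra2b, -0.52 and 0.47 for Zfand2b, and -1.45 and 0.10 for Tpsb2, so only Rabepk stayed 1 or more from 0 at both. Their control pools also lay far apart, the 1 month control minus the 1 week control being -2.22 for Rabepk, -1.75 for Cdk5rap3, -1.51 for Adra2b, 2.31 for Zfand2b and 3.40 for Tpsb2. The part of the control pools in these values was not tested.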

How the results depend on the processing

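The number of probe sets called at 1 month (450) was 760 on signals as deposited, 113 with 16 units added, 1842 with no signal filter, 173 in the upper 40% by signal, 161 at a log2 size of 1.5 and 287 (141 higher, 146 lower) against the mean of both control pools. It ran from 629 to 697 with 1 array left out, where 1 array of a pool meets the rule more easily, and was 438 with median centring. With arrays paired by their number as a replicate block it was 479; the numbers mark arrays of a pool, not animals. At 1 week (469) the count was 904 as deposited (808 higher, 96 lower), 161 with 16 added, 1889 with no filter and 240 in the upper 40%, and 535 to 781 with 1 array left out. Against the 10 and 30% pools (57) it was 48 as deposited (28 above, 20 below), 1 with 16 added, 591 with no filter and 3 in the upper 40%, and 69 to 195 with 1 array left out. The joint fit (363) gave 630 as deposited (579 up, 51 down), 203 with median centring, 0 without the variance trend, 197 on the arrays numbered 1 alone and 238 on those numbered 2, and 22 to 169 with 1 pool left out. Of the 78 named genes, values moved by more than the spread between arrays for 51 as deposited, 47 with 16 added, 39 against the mean of both control pools (1 more reversed) and 17 with median centring. Among those past the rule, Tpsb2 changed sign, to 0.12 against the mean of both control pools. Among those not past it, the sign changed for Hamp (0.12), Igf1 (0.21) and Igfbp1 (0.41) as deposited, for Igfbp1 (0.09) with median centring, for Hamp (0.15) against both control pools, and with 1 array left out for Neo1 (-0.52), Jph2 (-0.16), Igfbp1 (0.24) and Coa7 (0.04 and 0.07). The causes were not tested. Signals near background limit the dim genes: 1392 of 6346 probe sets under the filter would also have met the rule.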
